A study of Homo sapiens with 6 samples.

Results

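The genes described here encode the subunits of GABA-A, ionotropic glutamate, glycine and nicotinic acetylcholine receptors, together with the metabotropic glutamate receptors. They were chosen by their GENCODE 44 symbols (GABR, GRIA, GRIK, GRIN, GRID, GRM, GLRA, GLRB and CHRN with the subunit letters and numbers), and 65 of the 19977 genes counted in each library met the rule. The rule itself uses no measured value, but the set was chosen with earlier results of these data known. Of these 65 genes, 19 were GABA-A receptor genes, 18 ionotropic glutamate, 8 metabotropic glutamate, 4 glycine and 16 nicotinic receptor genes.

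Most of these proteins are ligand-gated ion channels. GABA-A and glycine receptors are chloride channels of 5 subunits, nicotinic receptors are cation channels of the same fold, and ionotropic glutamate receptors are cation channels of 4 subunits in the AMPA, kainate, NMDA and delta families. Metabotropic glutamate receptors signal through G proteins instead. They are best known from synapses, although pluripotent stem cells also hold GABA-A receptor transcripts, and a channel forms only when subunits that can assemble are made together.

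The RNA came from NCRM-1, a human induced pluripotent stem cell (hiPSC) line of Wild Type genotype, grown as aggregates in vertical wheel bioreactors and collected on day 4. In the optimized medium (PEG and HS, 3 libraries) Essential 8 (E8) medium held 10 mg/ml polyethylene glycol (PEG) and 0.1 µg/ml heparin sodium salt (HS), and the 3 E8 control libraries had E8 alone. The treatment text of the labels describes the 2 additives for all 6 libraries, and the grouping here follows each library's own treatment entry. Only 1 bioreactor per medium and 1 line can be read from the labels, so the p-values measure the spread between 3 libraries that may not be separate cultures.

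Counts on genes were 26991279 to 36185138 per library, and levels are given as CPM (counts scaled to library size) with TMM factors of 0.994 to 1.006. A count of 3 in all 6 libraries together corresponds to 0.0157 CPM, the level that a gene without any count may still have. The pluripotency label was checked against 7 markers, which summed to 7310 to 7450 CPM in E8 control and 7460 to 7720 CPM in PEG and HS, with 3 of the 7 higher and 2 lower in PEG and HS. POU5F1, the gene of OCT4, stood at 1610, 1670 and 1630 CPM in E8 control and at 1910, 1910 and 1950 CPM in PEG and HS. SOX2 moved the most of the called markers and fell from 399, 423 and 413 CPM to 269, 275 and 276 CPM (log2 change -0.59 with an SE of 0.028, adjusted p = 4.79e-10), and LIN28A fell from 1640, 1670 and 1660 CPM to 1300, 1320 and 1420 CPM. NANOG rose from an average of 126 CPM to 185 CPM (log2 change 0.55) and L1TD1 from 803 CPM to 1030 CPM (log2 change 0.36).

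Receptor transcripts were present in every class, and more of them were higher than lower in PEG and HS. Of the 65 genes, GABRA6, GABRR3 and CHRNB3 had no count in any library, and GABRB1, GABRG3, CHRNA1, CHRNA2, CHRNG and GLRA2 had fewer than 10 counts in all. The other 56 were tested with the quasi-likelihood test of edgeR, adjusted by Benjamini and Hochberg's method over all 16505 genes tested, and a gene was called at an adjusted p under 0.05. In PEG and HS, 12 receptor genes were higher (21.4% of those tested), where 12.2% of all genes tested were called higher. Only GRM3 was lower (1.79%), where 13.1% of all genes were called lower. Calls in either direction took 23.2% of the receptor genes and 25.3% of all genes.

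The calls fell on the better counted members. Among the 36 genes with at least 1 CPM on average in either medium, 33.3% were higher and 2.78% lower, where the same floor left 14.5% of all genes called higher and 15.1% called lower. This floor is met in the medium where a gene is higher and so is not independent of the difference. Of the 20 tested genes under 1 CPM in both media, edgeR called 0, and 2 had an unadjusted p under 0.05. The median log2 fold change over the 56 genes was 0.087, with 37 above 0 and 19 below, where the median of all genes tested was 0.0031.

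All 13 called genes were without overlap, meaning that every library of the higher medium lay above every library of the other. Overlap was absent for 26 of the 56 genes (46.4%), where it was absent for 39.3% of all genes tested. Every PEG and HS library lay above every E8 control library for 20 of them (35.7%), where this held for 19.5% of all genes.

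Markers of other cell types that the aggregates could hold differed between the media too. The 8 neural plate markers summed to 179 to 183 CPM in E8 control and 76.6 to 82.2 CPM in PEG and HS, with 7 lower, LMO3 higher and none at 0, and LHX5 fell most (log2 change -2.37 with an SE of 0.086, adjusted p = 2.25e-11). The 14 neuron markers summed to 460 to 467 CPM in E8 control and 445 to 463 CPM in PEG and HS, with 1 higher, 2 lower and none at 0, and STMN2 fell most (log2 change -0.93 with an SE of 0.21, adjusted p = 0.0045). The 5 mesoderm and primitive streak markers summed to 5.97 to 7.34 CPM in E8 control and 5.47 to 5.63 CPM in PEG and HS, with TBX6 lower. The 4 endoderm markers summed to 2.36 to 3.04 CPM in E8 control and 2.01 to 2.25 CPM in PEG and HS. The 5 skeletal muscle markers summed to 3.0 to 3.54 and 2.16 to 2.33 CPM, with MYOD1 at 0. Only 2 endoderm and 2 skeletal muscle markers had enough counts to be tested, and edgeR called 0 of them. Of those tested, 1 and 2 had an unadjusted p under 0.05 and were lower in PEG and HS without overlap. The summed levels of these lists were thus lower, or in neurons nearly level, in the medium in which most called receptor genes were higher. Their part in the receptor differences was not tested, and in bulk RNA fewer cells of a type and less RNA per cell cannot be told apart.

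**Figure D1:**
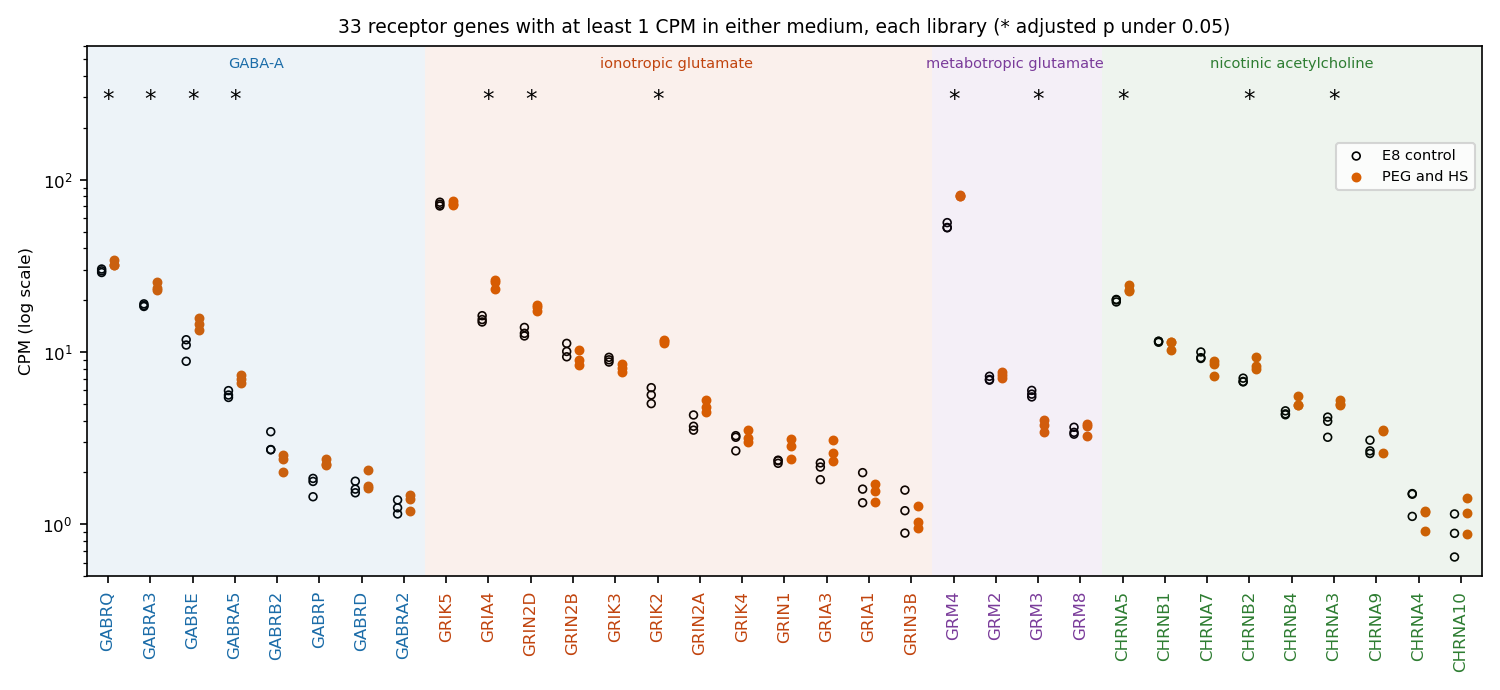
Level of 33 receptor genes with at least 1 CPM in either medium, one point per library, in CPM on a log scale, grouped by receptor class and ordered by the E8 control mean. GRM4 stood at 52.6 to 56.3 CPM in E8 control and at 80.2 to 81.3 CPM in PEG and HS, and an asterisk marks the 12 drawn genes with an adjusted p under 0.05.

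Promoters are shown for the 3 genes that rose most among the called genes (GRIK2, GRIA4 and GRM4) and for the single gene that fell (GRM3). Each is 300 bases of the RefSeq promoter table on GRCh38.p14, from 250 bases before the start listed there for the gene to 50 after it, written 5′ to 3′ on the gene's own strand with each CG dinucleotide and each motif match in capitals. That start is the gene's first annotated base in GENCODE 44 for GRM3, but lies 1.17 kb inside the annotated gene for GRIA4, 9.54 kb inside for GRM4 and 431 kb inside for GRIK2, so other starts are annotated upstream of these 3 windows. Which start the cells used was not measured.
GRIK2 (chr6:101393458-101393757, plus strand): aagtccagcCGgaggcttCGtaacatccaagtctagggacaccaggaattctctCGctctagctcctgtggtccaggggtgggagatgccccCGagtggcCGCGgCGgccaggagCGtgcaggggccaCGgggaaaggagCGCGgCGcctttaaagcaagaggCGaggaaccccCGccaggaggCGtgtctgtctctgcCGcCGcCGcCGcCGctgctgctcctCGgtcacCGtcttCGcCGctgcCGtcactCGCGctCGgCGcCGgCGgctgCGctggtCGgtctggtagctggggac
GRIA4 (chr11:105610456-105610755, plus strand): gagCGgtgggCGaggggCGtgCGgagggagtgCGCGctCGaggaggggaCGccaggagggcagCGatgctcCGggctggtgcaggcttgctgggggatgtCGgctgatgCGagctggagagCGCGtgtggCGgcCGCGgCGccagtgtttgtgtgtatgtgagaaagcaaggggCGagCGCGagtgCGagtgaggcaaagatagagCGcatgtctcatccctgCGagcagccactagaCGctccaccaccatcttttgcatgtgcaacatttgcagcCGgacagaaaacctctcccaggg
GRM4 (chr6:34146038-34146337, minus strand): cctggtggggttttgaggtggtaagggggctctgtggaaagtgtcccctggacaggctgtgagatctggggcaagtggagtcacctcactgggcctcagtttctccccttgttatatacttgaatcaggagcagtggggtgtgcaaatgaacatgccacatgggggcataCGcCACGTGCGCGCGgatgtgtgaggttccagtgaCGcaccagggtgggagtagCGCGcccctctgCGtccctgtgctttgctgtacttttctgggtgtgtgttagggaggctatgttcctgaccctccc
GRM3 (chr7:86643659-86643958, plus strand): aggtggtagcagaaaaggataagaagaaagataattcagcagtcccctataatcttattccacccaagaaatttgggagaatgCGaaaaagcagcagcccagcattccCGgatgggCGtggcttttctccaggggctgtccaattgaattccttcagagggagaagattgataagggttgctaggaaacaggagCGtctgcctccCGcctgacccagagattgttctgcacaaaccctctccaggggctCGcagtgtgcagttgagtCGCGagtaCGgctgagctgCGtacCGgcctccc
The windows of GRIK2 and GRIA4 held 33 and 26 CG dinucleotides at a GC content of 69.3% and 64.7%, those of GRM4 and GRM3 held 9 and 11 at 58.0% and 52.7%. Genes that rose stood at either end of this range. The motifs were searched on both strands and were GGGCGG (the GC box of Sp1 and KLF factors), CACGTG (the E-box of MYC and related factors), CCGGAAG (the core bound by many ETS factors) and TATAAA, and a base could count for more than 1 of them. In these 4 windows the only match was 1 CACGTG in the GRM4 window, whose capitals run into the CG dinucleotides after it.

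The promoter table matched 46 of the 65 receptor genes. The median number of CG dinucleotides was 24 in the windows of the 26 genes with at least 1 CPM and 11 in those of the 20 genes under 1 CPM, where it was 25 over 12918 tested genes in the table. GGGCGG stood in 17 of the 26 windows (65.4%) and 7 of the 20 (35.0%), where it stood in 66.6% of those of all tested genes and in 44.6% of all 27305 promoters. The 8 matched genes that rose held a median of 26.5 CG dinucleotides, and GGGCGG was in 4 of the 8 windows. The motif CACGTG was found in 3 of the 46 windows (6.52%) and TATAAA in 2 (4.35%), where 9.48% and 6.66% of the windows of all tested genes held them. CCGGAAG was in 0 of the 46 windows and in 16.6% of those of all tested genes.

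GABA-A receptors gave 5 of the 12 genes that rose and none that fell, with 15 of 19 genes tested (33.3% higher, against 12.2% of all genes tested) and a median log2 fold change of 0.30. The count was 3 without PEG and HS replicate 1 and without E8 control replicate 2 or 3. The α subunits that rose were α3 and α5, which take part in the GABA binding site.

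GABRA3 (chrX:152166234-152451315, GRCh38) stood at 18.6, 19.0 and 18.4 CPM in E8 control and at 22.7, 25.4 and 23.6 CPM in PEG and HS, a log2 fold change of 0.35 (SE 0.056, adjusted p = 2.21e-04). GABRA5 (chr15:26866911-26949208) stood at 5.97, 5.45 and 5.63 CPM in E8 control and at 7.32, 6.58 and 6.97 CPM in PEG and HS, a log2 fold change of 0.30 (SE 0.088, adjusted p = 0.0219). The media stood apart by less for GABRA5, whose call was lost with DESeq2 (adjusted p = 0.100) and without PEG and HS replicate 1 or 3 or E8 control replicate 2 or 3.

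GABRE and GABRQ, which also rose, encode ε and θ, less common subunits that can take the place of others in the channel. GABRE (chrX:151953124-151974680) stood at 11, 8.83 and 11.8 CPM in E8 control and at 15.8, 14.6 and 13.3 CPM in PEG and HS, a log2 fold change of 0.47 (SE 0.095, adjusted p = 0.0019). GABRQ (chrX:152637895-152657542) stood at 28.9, 30.3 and 29.6 CPM in E8 control and at 31.9, 34.2 and 32.1 CPM in PEG and HS, a log2 fold change of 0.14 (SE 0.046, adjusted p = 0.0355). GABRQ moved the least of the called genes, and its call was lost with DESeq2 (adjusted p = 0.0977), with upper quartile scaling (adjusted p = 0.0536) and on leaving out any library other than PEG and HS replicate 3. GABRE also hosts 2 miRNA genes, MIR224 and MIR452, whose bases lie on its strand.

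Per kilobase of the canonical transcript, GABRA3 and GABRQ stood at 5.09 and 4.58 CPM per kb in E8 control, GABRE at 3.34 and GABRA5 at 2.23. GABRA5 took 5.14% ± 0.30 (SD, n = 3) of the summed GABA-A level per kb in PEG and HS and 5.16% ± 0.21 in E8 control, a difference smaller than the spread between libraries. The share of GABRQ was lower in PEG and HS without overlap (9.54% ± 0.315 against 10.6% ± 0.489), although its CPM rose. The shares of GABRA3 and GABRE overlapped between the media.

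None of GABRP, GABRB2, GABRD and GABRA2, which also had at least 1 CPM, passed the test. GABRP, the π subunit known from epithelia, stood at 1.45, 1.85 and 1.77 CPM in E8 control and at 2.22, 2.41 and 2.25 CPM in PEG and HS (adjusted p = 0.0816). GABRB2 stood at 2.71, 3.45 and 2.72 CPM in E8 control and at 2.40, 2.51 and 2.01 CPM in PEG and HS (adjusted p = 0.113). Neither gene overlapped between the media, and they differed in opposite directions. GABRD and GABRA2 lay between 1.15 and 2.07 CPM in all 6 libraries, and their libraries overlapped.

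GABA-A genes lie in groups on a few chromosomes, and 3 of the 5 that rose lie in 1 of the groups. Genes of 1 class no more than 1000 kb from the next were taken as a group. On chromosome X (chrX:151953124-152657542) GABRE, GABRA3 and GABRQ all rose. On chromosome 4 (chr4:46035769-47426447) none of GABRG1, GABRA2 and GABRA4 was called and GABRB1 had 8 counts. The genes of the chromosome 4 group had few counts, at most 252 in all 6 libraries, so small differences could not be resolved there. Not every group is shown, and GABRB2, lower without overlap but not called, lies in another on chromosome 5.

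**Figure D2:**
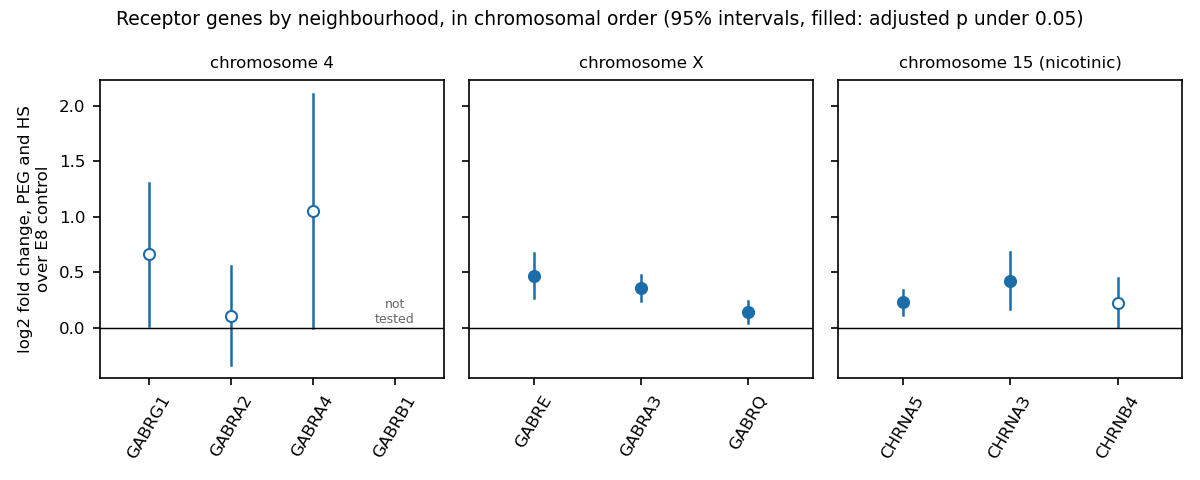
Fitted log2 fold change (PEG and HS over E8 control) of the genes in 2 GABA-A groups and 1 nicotinic group, in chromosomal order, with 95% intervals and filled points for an adjusted p under 0.05. All 3 genes of the X group and of the nicotinic group on chromosome 15 lie above 0, and the intervals are wide in the chromosome 4 group.

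Ionotropic glutamate receptors gave 3 genes that rose of 18 tested (16.7%, near the 12.2% of all genes tested), with 1 each in the AMPA, kainate and NMDA families, and none that fell. The largest difference of any called receptor gene was that of GRIK2, the GluK2 subunit of kainate receptors, which was 2.05-fold higher in PEG and HS. GRIK2 (chr6:100962701-102081622) stood at 5.63, 5.02 and 6.21 CPM in E8 control and at 11.6, 11.3 and 11.7 CPM in PEG and HS. The lowest PEG and HS library lay well above the highest control, and the log2 fold change was 1.03 (SE 0.085, adjusted p = 2.66e-07).

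No other kainate gene was called. GRIK5, the GluK5 subunit, which forms channels only together with GluK1 to GluK3, stood at 73.9, 72.0 and 70.3 CPM in E8 control and at 72.4, 75.0 and 71.3 CPM in PEG and HS. The log2 difference was 0.017 with a 95% interval of -0.057 to 0.090, so a difference of the size seen for GRIK2 lies outside what these libraries allow. GRIK3 stood at 8.74 to 9.31 CPM in E8 control and 7.68 to 8.53 CPM in PEG and HS (adjusted p = 0.148), and GRIK4 at 2.67 to 3.27 and 2.98 to 3.50 CPM (adjusted p = 0.763).

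The kainate make-up shifted accordingly. GRIK2 took 12.2% ± 0.52 (SD, n = 3) of the summed kainate level per kb in PEG and HS and 6.36% ± 0.70 in E8 control, and GRIK5 took 80.6% ± 0.37 and 85.5% ± 0.96. The ratio of GRIK2 to GRIK5 per kb was 0.153, 0.143 and 0.157 in the PEG and HS libraries and 0.0727, 0.0665 and 0.0842 in the controls. These shares depend on the length taken for a gene. With the union of all annotated exons in place of the canonical transcript, a choice made after seeing the data, GRIK2 took 2.99% in PEG and HS and 1.49% in E8 control.

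GRIA4, the GluA4 subunit of AMPA receptors, which carry fast excitatory currents, rose 1.61-fold. GRIA4 (chr11:105609535-105982090) stood at 15.4, 14.9 and 16.2 CPM in E8 control and at 25.6, 26.0 and 23.3 CPM in PEG and HS, a log2 fold change of 0.68 (SE 0.060, adjusted p = 5.96e-07). It was the main AMPA transcript in both media, with 85.0% ± 1.8 of the summed AMPA level per kb in PEG and HS and 79.6% ± 0.99 in E8 control.

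Other AMPA subunits were scarce. GRIA3 stood at 2.15, 1.82 and 2.27 CPM in E8 control and at 3.08, 2.34 and 2.6 CPM in PEG and HS, without overlap but short of a call (adjusted p = 0.125). GRIA1 lay between 1.33 and 2.0 CPM in all libraries (adjusted p = 0.781). GRIA2, the subunit that makes AMPA channels impermeable to calcium, had 17 counts in all, 0.15 CPM in E8 control against 0.032 CPM in PEG and HS (adjusted p = 0.115), and took 0.77% and 0.11% of the AMPA level per kb.

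Of the NMDA receptor genes only GRIN2D, the GluN2D subunit known from early development, was called. GRIN2D (chr19:48393668-48444931) stood at 12.8, 13.9 and 12.4 CPM in E8 control and at 17.3, 18.7 and 18.1 CPM in PEG and HS, a log2 fold change of 0.47 (SE 0.063, adjusted p = 5.28e-05). GRIN1, the GluN1 subunit that every NMDA receptor needs, stood at 2.26, 2.34 and 2.36 CPM in E8 control and at 2.85, 3.11 and 2.39 CPM in PEG and HS (adjusted p = 0.246). Every PEG and HS library lay above the controls for GRIN1, the lowest of them barely.

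GRIN1 was thus not the main NMDA transcript. Per kb, GRIN2D stood 5.21 ± 0.71 times as high as GRIN1 in PEG and HS and 4.47 ± 0.27 times in E8 control, without overlap, the lowest PEG and HS library being at 4.76 and the highest control at 4.72. GRIN2D made up 66.1% ± 0.44 of the summed NMDA level per kb in PEG and HS and 59.9% ± 2.7 in E8 control, where GRIN1 made up 12.8% ± 1.6 and 13.4% ± 0.54.

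GRIN2A and GRIN2B, the subunits that dominate in the adult forebrain, were counted but not called. GRIN2A stood at 3.71, 4.31 and 3.52 CPM in E8 control and at 4.8, 5.24 and 4.46 CPM in PEG and HS (log2 difference 0.33, adjusted p = 0.0585), and it passed the threshold without E8 control replicate 2 (adjusted p = 0.0361). GRIN2B stood at 9.38, 10.1 and 11.2 CPM in E8 control and at 8.39, 8.99 and 10.3 CPM in PEG and HS (adjusted p = 0.251), with overlap. GRIN3B lay between 0.89 and 1.58 CPM in all libraries (adjusted p = 0.662).

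Metabotropic glutamate receptors held both the most significant rise and the only fall among the receptor genes, with 8 of 8 genes tested and 1 called in each direction (12.5%, against 12.2% higher and 13.1% lower of all genes tested). GRM4, a group III receptor that couples to inhibitory G proteins, was among the most abundant receptor transcripts by CPM. GRM4 (chr6:34018643-34155622) stood at 52.6, 56.3 and 52.8 CPM in E8 control and at 80.6, 81.3 and 80.2 CPM in PEG and HS. The 3 libraries of PEG and HS were nearly level and far above the controls, and the log2 fold change was 0.58 (SE 0.036, adjusted p = 8.45e-09).

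GRM3, a group II receptor that also couples to inhibitory G proteins, went the other way. GRM3 (chr7:86643909-86864879) stood at 5.49, 5.69 and 5.99 CPM in E8 control and at 3.77, 3.43 and 4.02 CPM in PEG and HS, 1.53-fold lower with a log2 fold change of -0.61 (SE 0.11, adjusted p = 5.30e-04). The antisense transcript GRM3-AS1 covers 18.9% of its exon bases, and whether the counting used strand is not given in the sources used here.

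GRM2, the other group II receptor, stood at 7.23, 6.86 and 6.93 CPM in E8 control and at 7.06, 7.64 and 7.36 CPM in PEG and HS (adjusted p = 0.581). GRM8, of group III like GRM4, stood at 3.34 to 3.66 and 3.25 to 3.82 CPM (adjusted p = 0.821). The libraries of both genes overlapped, so neither group moved as a whole. GRM5, GRM6 and GRM7 lay under 1 CPM in both media and were not called, although without E8 control replicate 1 GRM5 passed and made 2 metabotropic genes higher. GRM5 had 84 counts in all, and the antisense transcript GRM5-AS1 covers 50.2% of its exon bases, so the limit on strand given for GRM3 holds for it too.

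Per kb, the ratio of GRM4 to GRM3 was 5.55, 5.73 and 5.11 in the controls and 12.4, 13.7 and 11.6 in PEG and HS. GRM4 took 71.5% ± 0.041 (SD, n = 3) of the summed metabotropic level per kb in PEG and HS and 60.9% ± 1.8 in E8 control, and GRM3 took 5.72% ± 0.49 and 11.2% ± 0.49. With the union of exons as length, GRM3 took 10.9% and 20%.

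**Figure D3:**
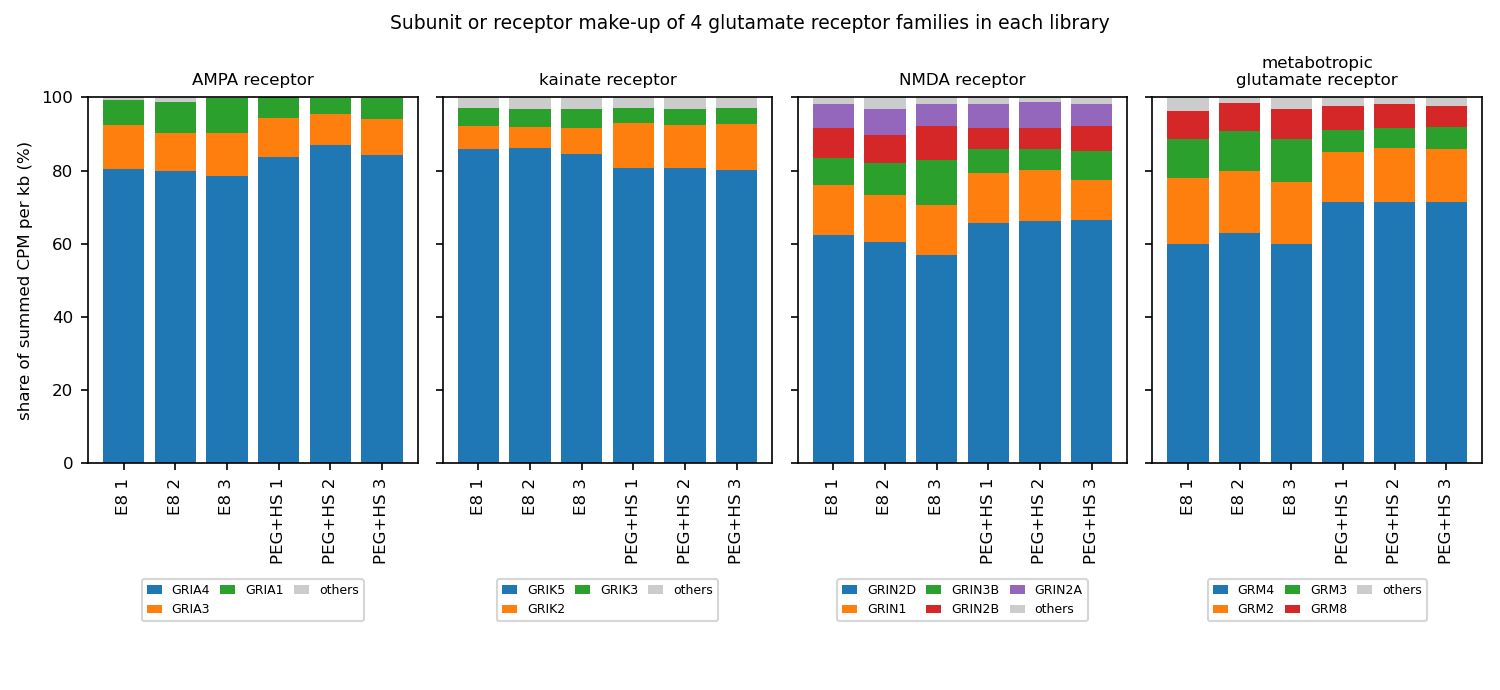
Make-up of the AMPA, kainate, NMDA and metabotropic glutamate receptor transcripts in each library, as percent of the summed CPM per kb of canonical transcript; genes under 4% in E8 control are drawn as others. GRIA4, GRIK5, GRIN2D and GRM4 form the largest part of their families in all 6 libraries, and the GRIK2 part of the kainate bars is 12.2% in PEG and HS and 6.36% in E8 control on average.

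Glycine receptor transcripts were at the edge of detection. GLRB, the β subunit that anchors the receptor to gephyrin, was the highest of the class at 0.741, 0.339 and 0.416 CPM in E8 control and 0.326, 0.319 and 0.325 CPM in PEG and HS (adjusted p = 0.335). Every control library lay above the PEG and HS libraries, yet in 2 of the 3 the gap was small beside the range of the controls. GLRA1 and GLRA3 had 11 and 25 counts in all and were not called.

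Nicotinic receptors gave 3 genes that rose of 12 tested (25%, against 12.2% of all genes tested) and none that fell, with a median log2 fold change of 0.11. The genes that rose encode subunits of neuronal nicotinic receptors. CHRNA5, an accessory subunit that joins α3β4 or α4β2 receptors, was the most abundant per kb and stood at 20.1, 19.5 and 20.2 CPM in E8 control and at 24.5, 23.0 and 22.5 CPM in PEG and HS. Its log2 fold change was 0.23 (SE 0.053, adjusted p = 0.0050).

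CHRNA3, the α3 subunit of ganglionic receptors, stood at 4.19, 3.2 and 3.96 CPM in E8 control and at 5.28, 4.92 and 4.96 CPM in PEG and HS, a log2 fold change of 0.42 (SE 0.12, adjusted p = 0.0176). The call was lost without PEG and HS replicate 1 (adjusted p = 0.0726) and without E8 control replicate 2 (adjusted p = 0.0841). CHRNB4, which pairs with α3, stood at 4.37, 4.56 and 4.32 CPM in E8 control and at 4.95, 4.95 and 5.56 CPM in PEG and HS, without overlap but short of a call (log2 difference 0.22, adjusted p = 0.132).

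These 3 genes form a group on chromosome 15 (chr15:78565520-78727754). The exons of CHRNA3 and CHRNA5 overlap by 198 bases on opposite strands, and a further antisense transcript covers 23% of the exon bases of CHRNA5, so reads of these genes cannot be told apart fully if strand was not used. The ratio of CHRNA3 to CHRNB4 per kb was 0.847 ± 0.074 in PEG and HS and 0.740 ± 0.12 in E8 control, with overlap.

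CHRNB2, the β2 subunit of the main brain receptor, stood at 6.75, 7.05 and 6.71 CPM in E8 control and at 8.27, 7.96 and 9.40 CPM in PEG and HS, a log2 fold change of 0.32 (SE 0.085, adjusted p = 0.0109). It lies on chromosome 1 (chr1:154567778-154580013), and its call was lost without PEG and HS replicate 3 (adjusted p = 0.0664). Its usual partner CHRNA4 was scarce, between 0.92 and 1.51 CPM in all libraries, and was not called (adjusted p = 0.332).

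CHRNB1, a subunit of the muscle receptor, stood at 11.5, 11.5 and 11.4 CPM in E8 control and at 11.4, 11.4 and 10.3 CPM in PEG and HS, with a log2 difference of -0.055 and a 95% interval of -0.20 to 0.090. The other muscle subunits were at or near the floor, with CHRNA1 at 3 counts, CHRND at 18 and CHRNG at 7 in all 6 libraries. CHRNE stood at 0.61 CPM in both media, and 48.6% of its exon bases lie antisense to C17orf107. CHRNA9 and CHRNA10, known from hair cells of the inner ear, lay at 2.58 to 3.50 and 0.65 to 1.42 CPM over the 6 libraries and were not called.

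CHRNA7, which forms receptors of α7 alone, shares reads with CHRFAM7A, a partial copy on the same chromosome with 91.5% of its transcript sequence in common with other genes. CHRNA7 stood at 9.27, 10.0 and 9.17 CPM in E8 control and at 8.90, 8.56 and 7.21 CPM in PEG and HS, without overlap and short of a call (log2 difference -0.21, adjusted p = 0.0987). CHRFAM7A had 91, 102 and 142 counts in E8 control and 89, 71 and 65 counts in PEG and HS (adjusted p = 0.0145). With the counts of the pair added, the average was 13 CPM for E8 control against 10.6 CPM for PEG and HS, and the pair fell with a log2 fold change of -0.30 (adjusted p = 0.0045). How the counting placed reads that map to both is not given in the sources used here.

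**Figure D4:**
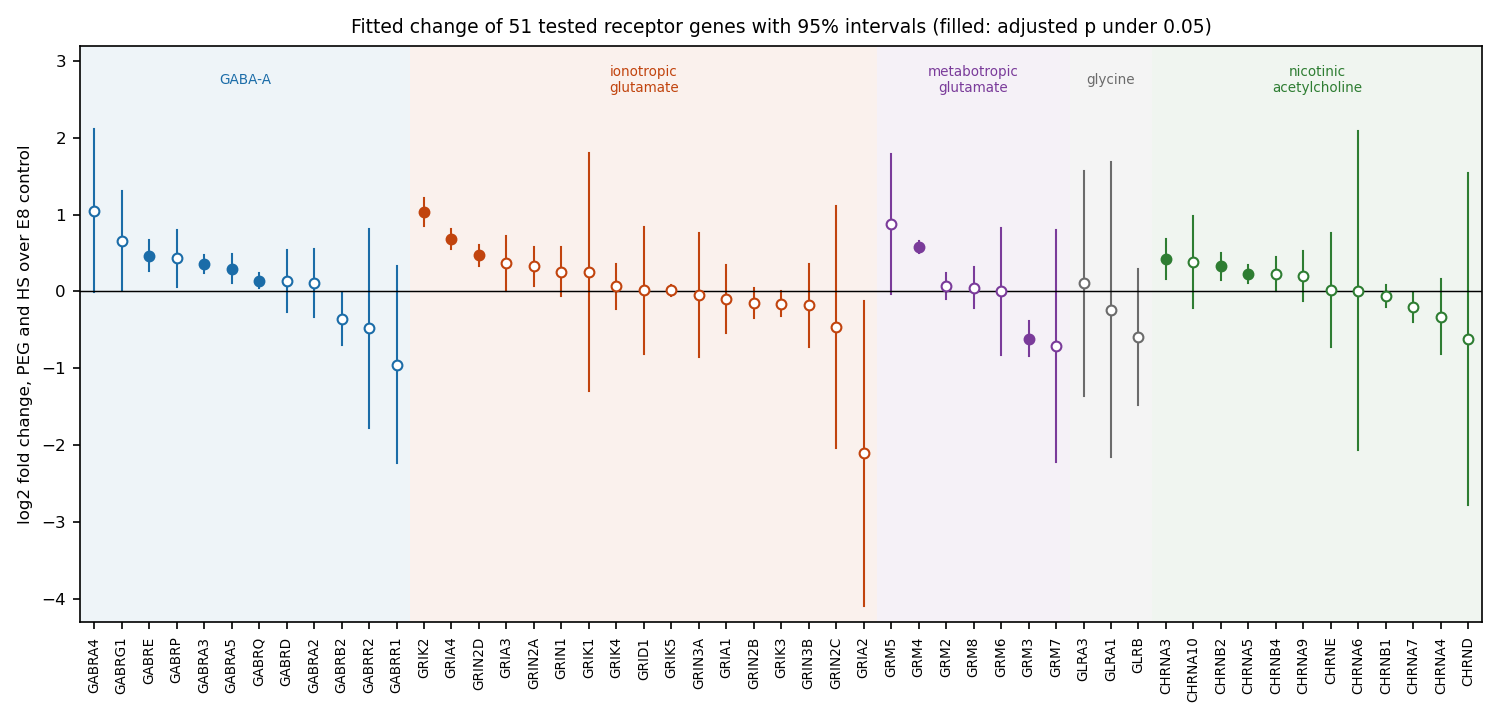
Fitted log2 fold change (PEG and HS over E8 control) of 51 tested receptor genes with 95% intervals, by receptor class and in order of size, with filled points for an adjusted p under 0.05. GRIK2 is the highest filled point at 1.03 and GRM3 the only filled point below 0, at -0.61, and genes with few counts such as GRIA2 have intervals several log2 units wide.

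Neurotransmitter receptor genes are often long, and span was compared for this reason. The median span of the 12 genes that rose was 66.8 kb, that of the 43 tested and not called 102.0 kb, and that of all genes tested 33.0 kb. Of the 28 tested receptor genes spanning at least 100 kb, 5 rose (17.9%), where 13.8% of all tested genes of that span were called higher. GRIK2 spans 1119 kb.

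**Figure D5:**
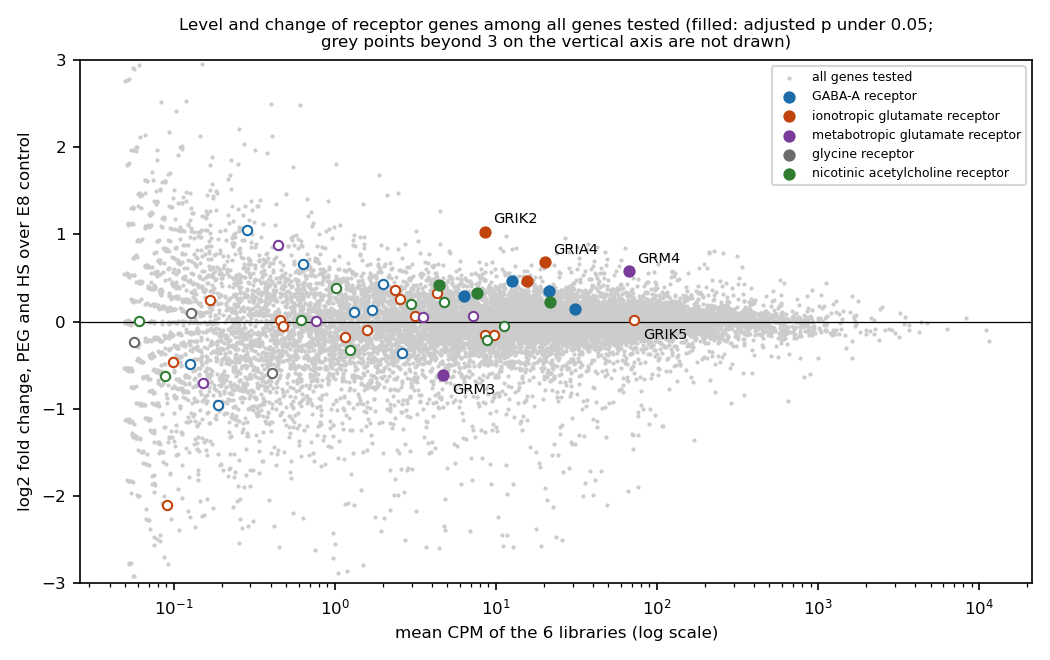
Fitted log2 fold change against the mean CPM of the 6 libraries (log axis) for all 16505 genes tested (grey) and 51 tested receptor genes (coloured by class, filled for an adjusted p under 0.05). GRIK2, GRIA4 and GRM4 are the 3 highest filled points, at 1.03, 0.68 and 0.58, GRM3 lies below 0, and no drawn receptor gene under 1 CPM is filled.

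Genes that make, clear and move the transmitters were described from fixed lists. Of 9 genes of GABA synthesis and transport, all tested, 0 rose with edgeR and 2 fell (22.2%, against 13.1% of all genes tested), with 4 at an unadjusted p under 0.05 and a median log2 fold change of -0.22. GAD1, which makes GABA from glutamate, fell 2.24-fold from 2.52, 2.15 and 2.19 CPM in E8 control to 0.771, 1.24 and 1.06 CPM in PEG and HS (log2 change -1.16 with an SE of 0.21, adjusted p = 7.22e-04). GAD2, the other enzyme that makes GABA, stood at 1.37, 1.32 and 1.27 CPM in E8 control and at 1.87, 1.45 and 1.57 CPM in PEG and HS, without overlap but short of a call (log2 difference 0.30, adjusted p = 0.294). The 2 enzymes thus differed in opposite directions, of which only the fall of GAD1 passed the test.

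Of 11 tested genes of glutamate synthesis and transport, 2 rose and 2 fell (18.2% each, near the 12.2% and 13.1% of all genes tested). SLC17A7, the vesicular transporter VGLUT1, fell from 2.11, 1.79 and 2.22 CPM to 1.19, 1.38 and 1.18 CPM (log2 change -0.71 with an SE of 0.19, adjusted p = 0.0124). Named after their values were seen, SLC1A3 (a glutamate uptake transporter) rose to 40 from 34.0 CPM and GLUL (glutamine synthetase) fell to 253 from 291 CPM.

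Of 9 tested genes of glycine and acetylcholine synthesis and transport, 3 rose (33.3%, against 12.2% of all genes tested) and none fell. BCHE, which cleaves choline esters, rose from 2.08, 2.34 and 2.05 CPM to 3.53, 2.87 and 3.22 CPM (log2 change 0.57 with an SE of 0.15, adjusted p = 0.0092). The other 2, again named after their values were seen, were GLDC and SHMT2, enzymes of glycine metabolism. Their differences were small, with GLDC 1.19-fold higher (244 against 205 CPM) and SHMT2 1.07-fold higher (253 against 235 CPM).

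Auxiliary subunits, chaperones and scaffolds of the receptors had 8 of 39 tested genes higher (20.5%) and 13 lower (33.3%), where 12.2% and 13.1% of all genes tested were called, with a median log2 fold change of -0.094. NETO1, an auxiliary subunit of kainate receptors, rose from 24.6, 22.5 and 24.1 CPM to 36.5, 33.8 and 35.3 CPM (log2 change 0.57 with an SE of 0.051, adjusted p = 6.42e-07). Its relative NETO2, named after its values were seen, rose to 39.7 from 35.4 CPM (adjusted p = 0.0088). The kainate subunit GRIK2 and both NETO genes thus rose while GRIK5 did not differ detectably. GRIK3 and GRIK4 were not called either, and GRIK3 was lower in PEG and HS without overlap. Named likewise, the lower genes held the scaffold SHANK3 (18.8 against 26.4 CPM), the cerebellin CBLN1 (5.23 against 7.0 CPM), the nicotinic modulator LYNX1 (7.75 against 10.9 CPM) and the nicotinic chaperone TMEM35A (5.25 against 7.0 CPM). The AMPA auxiliary genes of the list, also named after their values were seen, did not move together beside the rise of GRIA4. CACNG4 (6.15 against 7.99 CPM) and CACNG7 (50.5 against 59.2 CPM) fell and CACNG5 rose (5.72 against 4.66 CPM). CACNG8, CNIH2 and CNIH3 were not called, and CACNG2 and CACNG3 had too few counts to be tested.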

How the data were processed

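RNA was measured in 6 libraries, 3 per medium, of polyadenylated RNA prepared with a stranded kit. The authors deposited a table of raw read counts per gene for each library, with no normalization. Per the labels the reads were trimmed with Trim Galore 0.6.7 and mapped to GRCh38 with STAR 2.6.1. The counting tool, and how it used strand and placed reads with several matches, are not given in the sources used here.

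Of 19977 identifiers, 19916 matched GENCODE 44, which gave symbols, spans, exons and the canonical transcript used for levels per kb. Genes whose counts in the 6 libraries added to 10 or more were compared with edgeR 4.0.16 in R 4.3.3 (TMM, glmQLFit and glmQLFTest, no covariate), adjusted by Benjamini-Hochberg over 16505 genes, and the script was tested on simulated data. SE was computed as the size of the log2 change divided by the root of F, and 95% intervals use the fit's degrees of freedom. The common biological coefficient of variation was 3.12%. The depth of 26991279 to 36185138 counts resolves small differences only in well-counted genes, and floors of 3 counts cover counting error only. An exact permutation test of 3 against 3 libraries cannot go below 0.1.

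Shared sequence is the share of 31-base words of a gene's transcripts found in other genes, and counts were added for genes sharing at least 50%. Promoters came from RefSeq.

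Members with at least 1 CPM in either medium, called members and the highest member per kb of each class are named, as is the called gene with the largest change of each pathway list with at least 1 CPM. Some genes that this rule takes are not reported here. Members and lists were chosen with earlier results of these data known. The alternatives were DESeq2 1.42.0, limma-voom (limma 3.58.1), other normalizations and filters, a block for the replicate number, leaving out each library in turn, other thresholds and added shared reads.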

Additional observations from a re-analysis of the deposited data

How the results depend on the processing

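Of the 12 receptor genes called higher, 8 were also called under all 16 other tests, normalizations, filters, left-out libraries, block and shared-read fits run for single genes, as was GRM3, called lower. GABRQ lost its call under 7 of them, GABRA5 under 5, CHRNA3 under 2 and CHRNB2 under 1, and no called gene turned its sign. The number of receptor genes higher was 10 with DESeq2, 12 with limma-voom, 8 at an adjusted p under 0.01 and 9 to 12 on leaving out 1 library, and the number lower was 1 to 1 on leaving out 1 library. Tested against a 1.2-fold change, 4 receptor genes were higher (GRM4, GRIK2, GRIA4 and GRIN2D) and GRM3 was lower, with 868 genes called of all tested. Adding shared reads gave 13 higher and 2 lower, the second lower gene being CHRNA7. Over all genes 4173 were called, 2601 at an adjusted p under 0.01, 3398 with DESeq2 and 3111 to 3671 on leaving out 1 library. With the replicate number as a block (replicate block), 4444 genes were called, with 13 receptor genes higher and 1 lower, GRIN2A (adjusted p = 0.0385) being gained. Libraries with the same number did not deviate together across all tested genes (r of deviations 0.0052, 0.0137 and 0.0039). Weakly counted genes, whose counting noise lowers r, weigh as much there as others. These values thus cannot settle whether the number pairs the libraries. Among genes not called, leaving out 1 library turned the sign of the log2 difference for, among others, GRIA1 (-0.22 to 0.072, positive without E8 control replicate 3), GRIK4 (-0.014 to 0.12, negative without E8 control replicate 1), GRIK5 (-0.0034 to 0.032, negative without PEG and HS replicate 2 and, at -0.0013, without E8 control replicate 3) and GRIN3B (-0.35 to 0.053, positive without E8 control replicate 3). The cause of these changes was not tested. Depth limits the 29 receptor genes under 1 CPM in both media, of which 20 were tested.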

Other observations

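Transmitter receptors of related kinds that the symbol rule left out were also counted, in a list of 10 genes of which 9 were tested, 2 were higher (22.2%, against 12.2% of all genes tested) and none was lower. GABBR1, a subunit of the GABA-B receptor, which couples to G proteins, stood at 106, 95.4 and 96.2 CPM in E8 control and at 125, 129 and 111 CPM in PEG and HS (log2 change 0.30 with an SE of 0.051, adjusted p = 3.98e-04). CHRM1, the M1 muscarinic acetylcholine receptor, named after its values were seen, had 43 counts in all and averaged 0.0987 CPM in E8 control against 0.353 CPM in PEG and HS (log2 change 1.85 with an SE of 0.61, adjusted p = 0.0352). HTR3B was at 0 in all 6 libraries.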
